A study of Bos taurus with 9 samples.

Results

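In rumen tissue of Holstein cattle, 1374 wide regions had peaks of acetylated lysine 27 of histone H3 (H3K27ac) in control and after butyrate. These regions overlapped no listed peak of acetylated lysine 9 (H3K9ac) in either condition. They were chosen from peak lists of chromatin immunoprecipitation followed by sequencing (ChIP-seq). Overlapping peaks of the 4 acetylation lists (H3K27ac and H3K9ac, control and butyrate) on chromosomes 1 to 29 were merged, which gave 46982 regions. A merged region was kept when it overlapped an H3K27ac peak of both conditions by at least 1 bp, overlapped no H3K9ac peak, and was at least 800 bp wide. The peak positions of those 4 lists therefore chose the regions, and the values of H3K27ac and H3K9ac below are descriptions of that choice. RNA polymerase II (RNA pol II) and trimethylated lysine 9 of histone H3 (H3K9me3) took no part in it.

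The study took rumen tissue by biopsy before butyrate was infused into the rumen (control) and at 24 h of butyrate treatment (butyrate), and the age and number of animals are not given in the sources used here. Each pair of antibody (4) and condition (2) had 1 library and no replicate, and 1 input library was shared. No difference between conditions could be tested, and the 95% intervals given below cover counting error over regions only. The lists give no read depth, so the depth behind each peak is unknown. Lane 1 held the control and lane 3 the butyrate libraries of H3K27ac and H3K9ac, so lane and condition cannot be told apart for these marks, nor for H3K9me3 on lanes 3 and 4, whereas both RNA pol II libraries were on lane 3. On chromosomes 1 to 29 the lists held 36963 control and 32763 butyrate peaks of H3K27ac, 4075 and 4255 of H3K9ac, 673 and 1242 of RNA pol II, and 1536 and 1710 of H3K9me3. Far fewer H3K9ac than H3K27ac peaks were listed. A region called without H3K9ac below lacks a listed peak, and may still carry the mark below detection. The study proposes that a sensitivity issue may lie behind its lower peak numbers in rumen tissue than in cell lines. In whole tissue, fewer cells with a mark and less of the mark per cell cannot be told apart. The rumen label could not be checked against marker genes, because no gene annotation of the build was at hand.

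Acetylation of histone tails accompanies open, active chromatin. H3K27ac is found at active enhancers and active promoters, and H3K9ac is found mostly at active promoters, so that H3K27ac without H3K9ac is often met away from promoters. RNA pol II transcribes protein-coding genes and is densest near their start sites, but it is also met at active enhancers. H3K9me3 marks silent heterochromatin. Butyrate, a fatty acid made by microbes in the rumen, inhibits histone deacetylases, the enzymes that remove these acetyl groups.

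The share of regions without H3K9ac was lower in wider width classes. Of the 21132 merged regions with H3K27ac in both conditions, 16016 held no H3K9ac peak, and 14642 of these were narrower than 800 bp. Among regions of 200 to 299 bp, 94.0% were without H3K9ac. The share was 77.4% at 400 to 499 bp, 57.7% at 800 to 899 bp, 46.3% at 1000 to 1199 bp and 25.9% at 1500 bp or more. Width was measured over the merged region, which includes any H3K9ac peak, so such a peak can itself widen a region. Wider regions also offer more bases on which an overlap can fall. This fall with width therefore follows in part from the merging, and the size of that part was not tested. Of the 2748 regions of at least 800 bp, the 1374 without H3K9ac made up 50%. The other 1374 had an H3K9ac peak in both conditions (525 regions), in control only (434) or in butyrate only (415). The 2 counts happened to be equal at this width limit. The 1374 wide regions with H3K9ac and the 14642 narrow regions without it served as comparison sets. Wide regions without H3K9ac and with H3K27ac in 1 condition only numbered 37. Peaks of 1 list do not overlap each other, so each of these had to be a single peak of at least 800 bp. The other wide regions could reach that width by joining peaks of both conditions, so the small count follows in part from the choice.

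The regions without H3K9ac were 800 to 2300 bp wide, with a median of 938 bp (95% interval 926 to 950), and added up to 1.38 Mb. Close to the limit, 64 regions were less than 10 bp above it, and 71 regions were left out that missed it by at most 10 bp. The median share of a region under H3K27ac peaks of both conditions was 61.2% just inside the limit and 62.0% just outside it.

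The regions were chosen for a peak in each condition, but those peaks covered the same bases only in part. Control peaks covered 82.5% of the 1.38 Mb, butyrate peaks covered 79.8%, and 62.3% was covered in both. In the median region, 63.9% of the bases (95% interval 62.5 to 65.7) were under peaks of both conditions. The median was 70.7% in narrow regions without H3K9ac and 74.5% in wide regions with H3K9ac. At least 90% of the bases were shared in 121 regions (8.81%), and less than 25% in 79 regions (5.75%). Since width was measured over the merged region, peaks that are shifted against each other reach 800 bp more easily than peaks that coincide. A single peak of at least 800 bp was present in both conditions in 204 regions (14.8%, Wilson 95% interval 13.1 to 16.8), in control only in 427, in butyrate only in 371, and in neither in 372. Among the wide regions with H3K9ac, 457 (33.3%, 30.8 to 35.8) had such a peak in both conditions. Steady therefore describes the presence of H3K27ac in these regions, and not its width.

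Summed over peaks, the amount of H3K27ac cover was similar in the 2 conditions. The base pairs under control peaks ran from 200 to 2233 per region with a median of 820, and those under butyrate peaks from 200 to 2069 with a median of 813.5. The median log2 ratio of butyrate over control was -0.03 (95% interval -0.06 to -0.0031). There were more base pairs under butyrate peaks in 639 regions, fewer in 729, and the same number in 6. Butyrate cover was at least 1.5 times control cover in 180 regions (13.1%, 11.4 to 15.0), beside 11.2% of all 21132 regions with H3K27ac in both conditions. Control cover was at least 1.5 times butyrate cover in 242 regions (17.6%, 15.7 to 19.7), beside 13.2% of all. Among wide regions with H3K9ac these shares were 7.21% and 9.10%. The other 952 regions (69.3%) lay within 1.5-fold. The peaks behind these shares also chose the regions. No peak was shorter than 200 bp, so narrow regions leave less room for a 1.5-fold difference. A region without H3K9ac could also reach 800 bp through a long peak in 1 condition alone. The excess over all regions follows in part from the choice and was not tested. More control than butyrate H3K27ac peaks were listed over the chromosomes, and the part of that in the direction of these counts was not tested.

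**Figure D1:**
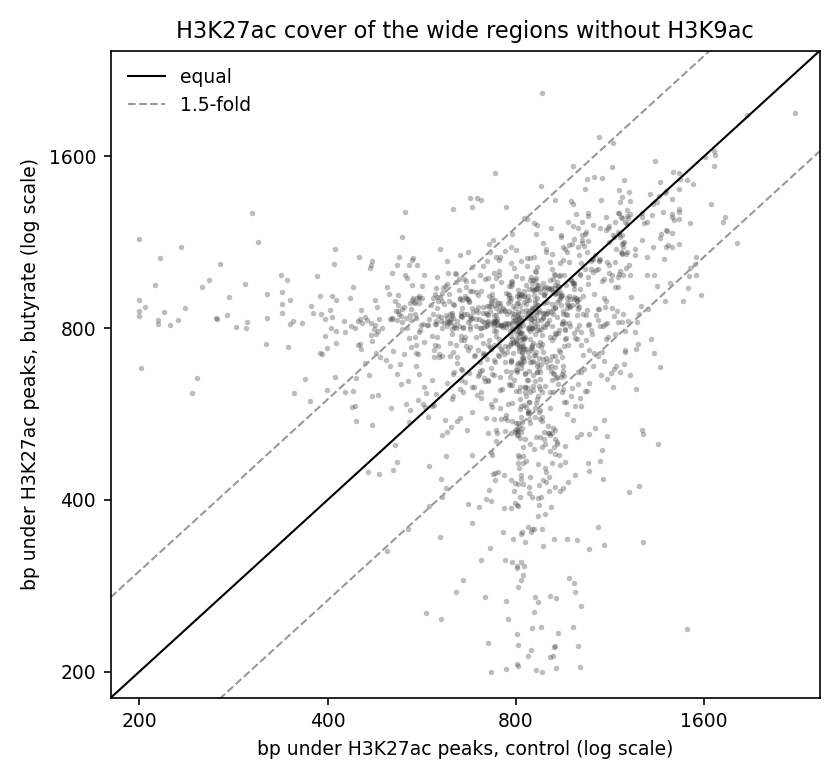
Base pairs under H3K27ac peaks in control (x axis, log scale) and butyrate (y axis, log scale), with 1 point for each of the 1374 wide regions without H3K9ac. The solid line marks equal cover and the dashed lines a 1.5-fold difference. The points of 952 regions lie between the dashed lines, and the 2 arms near 800 bp follow from the width limit, since a region with little cover in 1 condition had to be wide in the other.

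The regions differed in how many peaks built them. In 695 regions (50.6%, 47.9 to 53.2) there was 1 peak in each condition. Control had 1 peak and butyrate 2 or more in 319 regions, the reverse held in 265, and both conditions had 2 or more in 95. Thus butyrate peaks were divided in 414 regions (30.1%, 27.8 to 32.6) and control peaks in 360 (26.2%, 23.9 to 28.6). Among wide regions with H3K9ac, 55.7% had 1 peak in each condition. The share with 1 peak in each condition was 65.2% among members of 800 to 899 bp and 23.3% among those of 1200 bp or more.

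Where a peak was divided in 1 condition, the gap had to be bridged by a peak of the other for the region to stay whole, and a peak of at least 200 bp had to stand on either side of it, so its place near the middle of the region follows from the choice. The 375 gaps in control had a median of 115 bp, and the 441 gaps in butyrate had a median of 111 bp. Gaps shorter than 150 bp, which is about the DNA wrapped around 1 nucleosome, made up 65.1% of the control and 64.4% of the butyrate gaps. The shortest gap was 51 bp in both conditions, and no H3K27ac peaks of either whole list lay closer together than that, so shorter interruptions cannot be seen in these lists.

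In the 695 regions with 1 peak in each condition, the centres of the paired peaks were a median of 116.5 bp apart. The more distant pair of edges was offset by a median of 260 bp and the nearer pair by 41 bp. In wide regions with H3K9ac the centres were 69 bp apart. The butyrate peak lay inside the control peak in 214 regions and the control peak inside the butyrate peak in 173. In 308 regions each peak reached past the other on 1 side.

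The widest regions showed both patterns. Positions are on the assembly UMD3.1.1, with both ends included. The widest, chr25:39423267-39425566, measured 2300 bp and held 2 control peaks with 2233 bp and 3 butyrate peaks with 1909 bp, of which 1842 bp were shared. The second, chr15:78430847-78433072, was 2226 bp wide and had 882 bp under control and 2069 bp under butyrate peaks. That made it 2.35-fold larger after butyrate, with 32.6% of its bases shared. The third, chr11:99613834-99615801, was the most even of the 5, with a single control peak of 1873 bp and a single butyrate peak of 1887 bp that shared 1792 bp. The fourth, chr18:35144147-35146087, had 1087 bp under 2 control peaks and 1732 bp under 2 butyrate peaks. The fifth, chr12:18360004-18361920, had 1658 bp under 2 control peaks and 1536 bp under 1 butyrate peak. Only the third had 1 peak in each condition.

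The most unequal regions had a peak near the minimum width on one side. At chr14:22777177-22778320 a control peak of 200 bp faced a butyrate peak of 1144 bp, a ratio of 5.72. At chr3:8380514-8381574 the control peak measured 216 bp and the butyrate peak 1061 bp. At chr8:63737076-63738186 they measured 233 and 1111 bp. In the opposite direction, chr18:35472547-35474047 had 1501 bp in control and 238 bp in butyrate, which is 6.31-fold less. When peaks up to 200 bp apart were merged, this region grew to 2630 bp and its log2 ratio went from -2.66 to -1.10. The regions chr4:51747172-51748184 (1013 and 204 bp) and chr28:595810-596736 (927 and 203 bp) came next. In each of these 6 regions the smaller peak lay wholly inside the larger one, and none of the 6 remained when only H3K27ac peaks at or above the median width of their list were used.

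**Figure D2:**
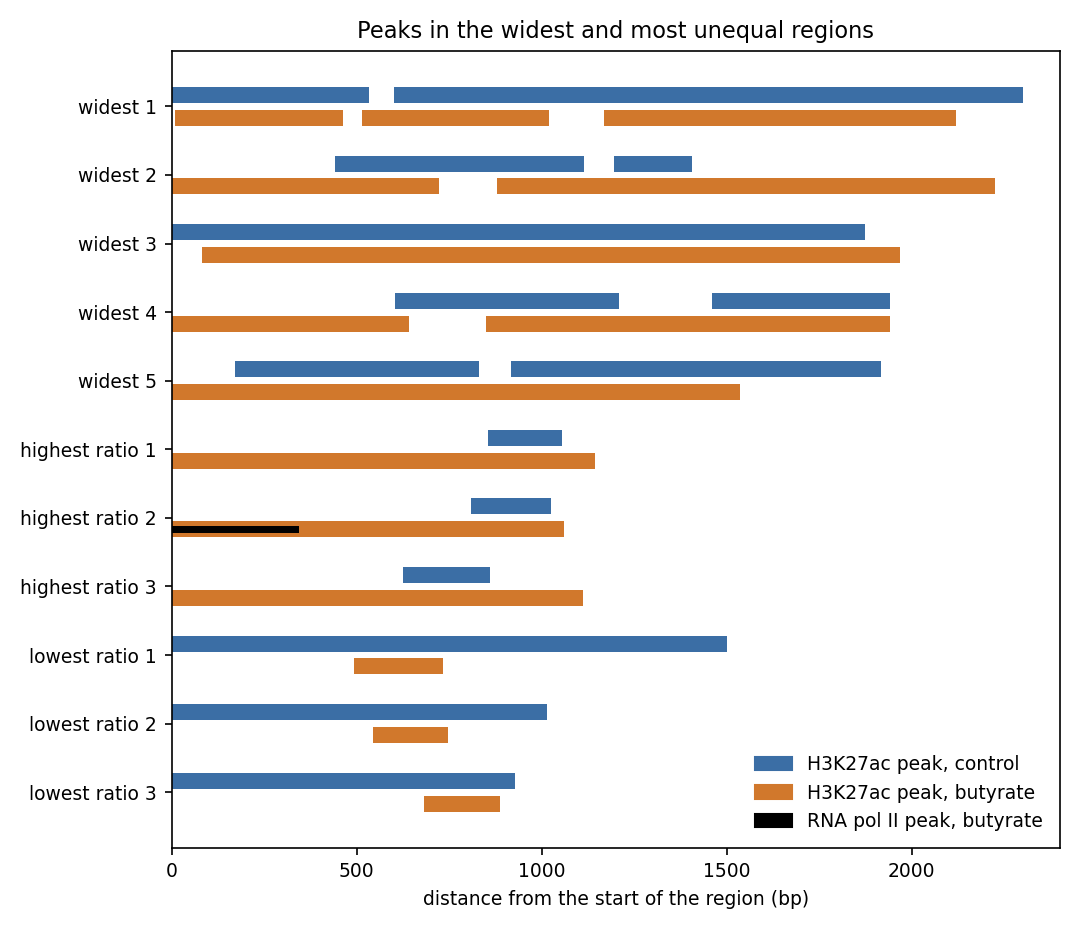
Peaks in the 5 widest regions and in the 3 regions with the highest and the 3 with the lowest ratio of butyrate over control base pairs, in the order of the text. Bars give the extent of H3K27ac peaks (control above, butyrate below) in bp from the start of the region, and the thin black bar an RNA pol II peak of the butyrate library. All of the widest regions but the third are built from divided or shifted peaks, whereas the unequal regions hold 1 short peak inside 1 long peak.

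RNA pol II, which the choice of regions did not use, lay over few of them. A control RNA pol II peak overlapped 17 of the 1374 regions (1.24%, Wilson 95% interval 0.774 to 1.97), beside 0.975% of all regions with H3K27ac in both conditions. A butyrate RNA pol II peak overlapped 27 regions (1.97%, 1.35 to 2.84), beside 1.73% of all. Both shares per region are close to the background, whose regions are mostly narrower. Per Mb of region, the overlapped regions numbered 12.3 in control and 19.5 in butyrate. The background, which includes regions with H3K9ac, had 18.4 and 32.6 per Mb. Narrow regions without H3K9ac had 12.3 and 20.8 per Mb, so the lower density was not particular to the wide ones. The share was larger than in narrow regions without H3K9ac, by 0.70 percentage points in control (Newcombe 95% interval 0.22 to 1.45) and by 1.06 points in butyrate (0.43 to 1.95). It was smaller than in wide regions with H3K9ac, with a difference of -1.53 points in control (-2.64 to -0.48) and of -3.93 points in butyrate (-5.43 to -2.50).

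Per length of region, wide and narrow regions without H3K9ac had overlapping intervals. The midpoints of RNA pol II peaks were counted per Mb of region, a measure added after the shares had been seen. Regions without H3K9ac held 16 control midpoints, or 11.6 per Mb (exact Poisson 95% interval 6.62 to 18.8), when wide and 11.03 per Mb (8.60 to 13.9) when narrow. With butyrate the wide regions held 26 midpoints, or 18.8 per Mb (12.3 to 27.6), and the narrow regions 19.5 per Mb (16.2 to 23.3). Summed over both conditions, the ratio of wide to narrow was 0.995, with an exact interval of 0.695 to 1.39. The width of an H3K27ac region without H3K9ac thus went with no detectable difference in RNA pol II per base pair, at this number of peaks.

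Among regions of at least 800 bp, those with an H3K9ac peak had the higher RNA pol II density. Wide regions with H3K9ac held 24.3 midpoints per Mb in control (17.1 to 33.5) and 53.9 in butyrate (42.9 to 66.9). The density in regions without H3K9ac was 0.476 times that in control (0.247 to 0.877) and 0.349 times that in butyrate (0.216 to 0.549).

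**Figure D3:**
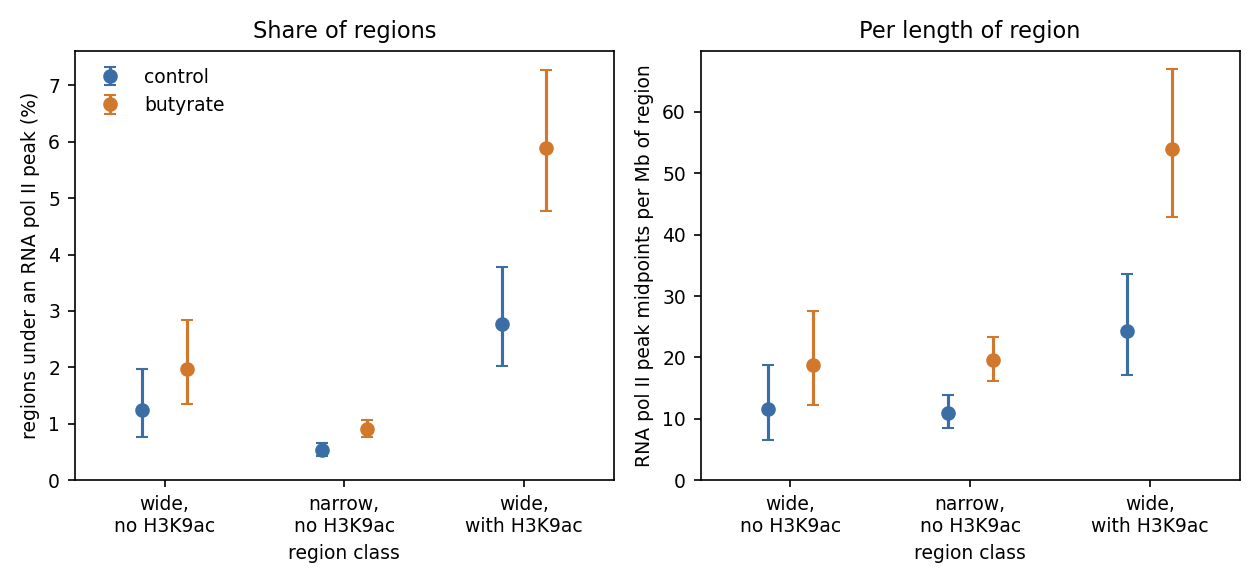
RNA pol II in wide regions without H3K9ac, narrow regions without H3K9ac and wide regions with H3K9ac, for control and butyrate. Left, the percentage of regions under an RNA pol II peak with Wilson 95% intervals, and right, RNA pol II peak midpoints per Mb of region with exact Poisson 95% intervals. The wide regions without H3K9ac lie above the narrow ones on the left but level with them on the right, and below the wide regions with H3K9ac in both panels.

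Nearly all regions under RNA pol II had it in 1 condition. Of 43 regions with an RNA pol II peak in any condition, 16 had it in control only, 26 in butyrate only, and 1 in both (2.33% of the 43, 0.412 to 12.1). The share in both was 9.38% (6.01 to 14.3) for 192 narrow regions and 8.18% (4.36 to 14.8) for 110 wide regions with H3K9ac, and these intervals overlap. Among all regions with H3K27ac in both conditions, 519 were under RNA pol II. Of these, 154 had it in control only, 313 in butyrate only and 52 in both, so the pattern was general to these lists. By width, the control share was 0.187% (0.0331 to 1.05) at 800 to 899 bp and 2.74% (1.26 to 5.85) at 1200 bp or more. The butyrate shares in the same classes were 2.62% (1.57 to 4.35) and 1.37% (0.467 to 3.95), so the order of the classes differed between the conditions, and their difference was not tested.

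Most of these RNA pol II peaks were short and lay wholly inside the H3K27ac region. There were 18 control peaks with a median width of 211 bp and 27 butyrate peaks with a median of 213 bp, and 15 and 23 of them lay wholly inside. Their centres were a median of 285.5 bp (control) and 266 bp (butyrate) from the centre of the region. All 18 control RNA pol II peaks touched a control H3K27ac peak, and 16 touched a butyrate one. Of the 27 butyrate RNA pol II peaks, 26 touched a butyrate H3K27ac peak and 25 a control one. H3K27ac peaks of both conditions build these regions, so such contact follows largely from the overlap with a region.

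The 1 region under RNA pol II in both conditions was chr17:53141377-53142380. It was 1004 bp wide, with 889 bp under control and 913 bp under butyrate H3K27ac peaks, and carried RNA pol II peaks of 315 and 222 bp in control and of 212 bp in butyrate. An H3K9ac control peak lay only 206 bp away, and a butyrate H3K9me3 peak 0.493 kb away. The widest region with RNA pol II in control only, chr11:60110408-60111979, had 1505 and 1453 bp under control and butyrate H3K27ac peaks and was 315.8 kb from the nearest H3K9ac peak. The widest with RNA pol II in butyrate only, chr25:20081712-20083264, had 1553 bp under 1 control H3K27ac peak and 992 bp under 3 butyrate peaks. Its butyrate RNA pol II peak of 200 bp lay mostly in a gap between those butyrate H3K27ac peaks. At chr3:8380514-8381574, described above, a butyrate RNA pol II peak of 343 bp lay in the part that had H3K27ac after butyrate only. These are single regions and show no general pattern.

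The H3K27ac ratios of regions with and without RNA pol II had overlapping intervals. The median log2 ratio of butyrate over control was 0.06 (-0.08 to 0.40) in the 26 regions with RNA pol II in butyrate only and -0.06 (-0.47 to 0.27) in the 16 with it in control only. In the 1331 regions without RNA pol II it was -0.03 (-0.06 to -0.0041). More H3K27ac base pairs after butyrate were found in 15 of the 26 regions and in 7 of the 16.

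No region was under an H3K9me3 peak. The count was 0 of 1374 in control, beside 0.133% of all regions with H3K27ac in both conditions, and 0 of 1374 in butyrate, beside 0.194% of all. Taken as 3 counts of 1374, the limit that a count of 0 allows is a share of 0.218%, so the number of regions does not separate them from that background. The narrow regions held 6 and 9 overlaps, and the wide regions with H3K9ac 0 and 7. In butyrate the difference from the wide regions with H3K9ac was -0.51 percentage points (Newcombe 95% interval -1.05 to -0.13). Within 10 kb, H3K9me3 peaks were found for 9 regions in control (0.655%, 0.345 to 1.24) and 16 in butyrate (1.16%, 0.718 to 1.88), where narrow regions had 0.908% and 1.22%.

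The regions lacked an H3K9ac peak by choice, but many had one close by. The nearest H3K9ac peak of either condition was a median of 21.4 kb away (95% interval 18.8 to 25.3), and 27.7 kb away from narrow regions. It lay within 1 kb of 185 regions (13.5%), of which 78 had it in control only, 66 in butyrate only and 41 in both. Within 5 kb there were 403 regions (29.3%) and within 100 kb 1063 (77.4%). This left 311 (22.6%) more than 100 kb from any H3K9ac peak. Among narrow regions the shares were 13.4% within 1 kb, 26.5% within 5 kb and 73.8% within 100 kb, so closeness at 1 kb was not particular to the wide ones. The wide region farthest away, chr4:38338380-38339422, was 4920 kb from the nearest H3K9ac peak. It had 931 bp under 2 control and 658 bp under 1 butyrate H3K27ac peak.

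The regions near to and far from H3K9ac were compared in their other measures. The median share of bases under both conditions was 65.2% (61.7 to 67.9) within 5 kb, 63.3% (61.1 to 65.1) above 5 to 100 kb and 65.3% (62.2 to 68.4) beyond 100 kb. RNA pol II of any condition lay over 3.72% (2.27 to 6.05), 2.73% (1.73 to 4.27) and 3.22% (1.76 to 5.82) of the regions in these classes. The intervals of all 3 classes overlapped for both measures.

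**Figure D4:**
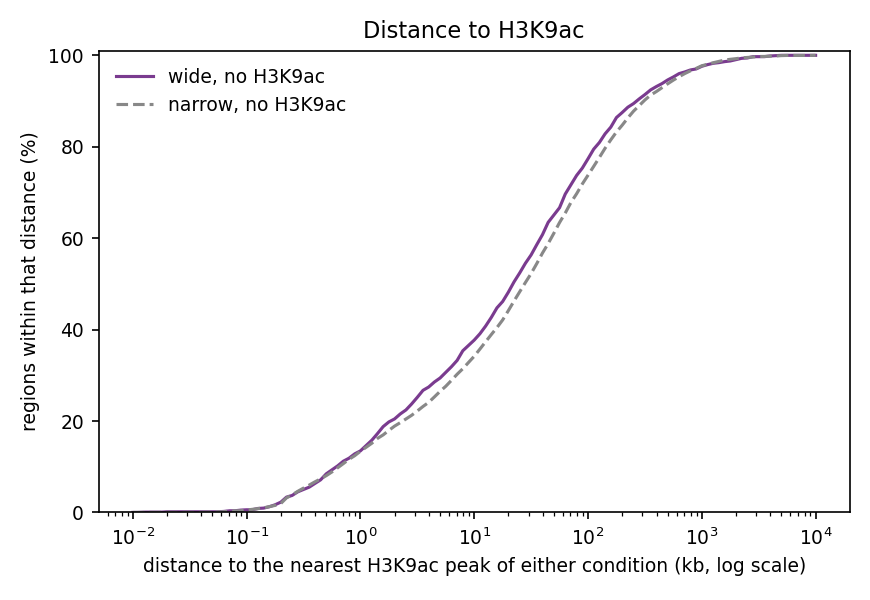
Percentage of regions (y axis) with an H3K9ac peak of either condition within a given distance in kb (x axis, log scale), for wide and narrow H3K27ac regions without H3K9ac. The curves lie close together up to 1 kb, with 13.5% of wide and 13.4% of narrow regions, and at 100 kb the wide regions reach 77.4% and the narrow ones 73.8%.

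Other H3K27ac peaks were close to most regions. Within 10 kb of a region's edges there was another control H3K27ac peak in 81.7% of regions and another butyrate one in 78.4%, with means of 3.32 and 3.09 peaks. The shares were like those of narrow regions, at 81.9% and 78.8% with means of 2.74 and 2.57 peaks. Wide regions with H3K9ac had 84.8% and 82.5%, with means of 3.42 and 3.21. The nearest other region of the set was a median of 187.6 kb away (165.7 to 210.2). It lay within 100 kb for 550 regions (40.0%, 37.5 to 42.6). Regions were linked at a distance often used to join neighbouring enhancers, under which the longest linked gap was 12.1 kb and the shortest not linked was 12.505 kb. Of the 1374, 211 regions formed 93 groups, of which 76 were pairs, 11 had 3 regions, 5 had 4 and 1 had 6, and the other 1163 stood alone. Those 211 made up 15.4% (13.5 to 17.4) of the set. Within the same linking distance, 230 regions (16.7%, 14.9 to 18.8) had a wide region with H3K9ac, so such closeness was not particular to the set.

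The group of 6 spanned 33.2 kb at chr18:48672285-48705531. It held 24 control and 22 butyrate H3K27ac peaks and 2 H3K9ac peaks in each condition, and no RNA pol II or H3K9me3 peak, although a control RNA pol II peak lay 0.683 kb from the first region. Neighbouring regions in this group differed in direction. In the first, chr18:48672285-48673187, cover was 903 bp in control and 415 bp in butyrate. In the second, chr18:48676557-48677678, it was 508 and 1000 bp. The third and the fifth were nearly even, with 726 and 763 bp at chr18:48689517-48690375 and 747 and 831 bp at chr18:48697983-48698813. The fourth, chr18:48690649-48691569, had 921 and 221 bp, although it began less than 300 bp after the end of the third. The sixth, chr18:48704616-48705531, had 618 and 477 bp, of which 179 bp were shared. Thus 3 of the 6 had more cover in control and 3 in butyrate. Of the 76 pairs, 41 had both regions on the same side, so opposed neighbours were not the rule.

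The regions were spread over all 29 chromosomes at unequal density. Over the span of the peaks there were 0.548 regions per Mb. Chromosome 19 had 94 regions (1.47 per Mb), chromosome 25 had 50 (1.17) and chromosome 18 had 76 (1.15), whereas chromosome 27 had 7 (0.159 per Mb). These 3 densest chromosomes, 18, 19 and 25, held 16.0% of the regions (14.168 to 18.045) in 6.89% of the span. They held 15.1% of the narrow regions and 15.3% of the wide regions with H3K9ac, so the comparison sets were concentrated there to a like degree. The share of wide regions among those without H3K9ac ran from 5.04% (3.17 to 7.93) on chromosome 24 to 11.8% (8.94 to 15.3) on chromosome 29, with a median of 8.50% over chromosomes.

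**Figure D5:**
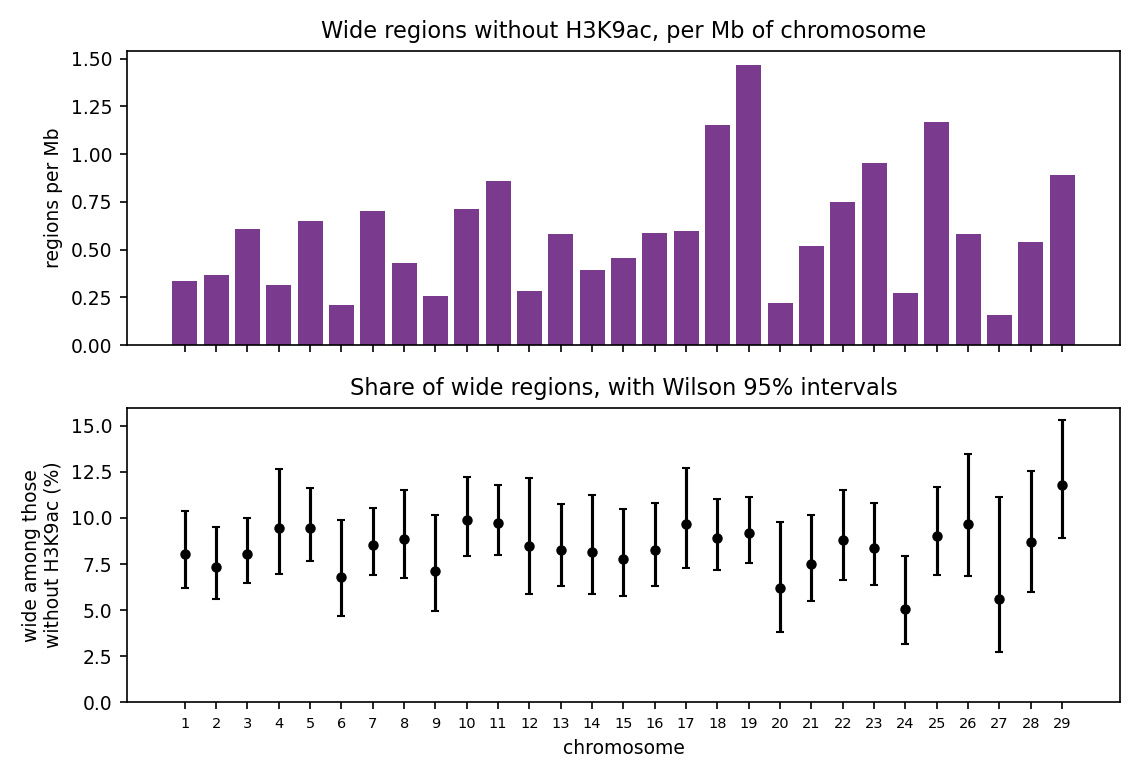
Wide H3K27ac regions without H3K9ac by chromosome. Top, regions per Mb, where chromosome length is the last position of any peak, and bottom, their percentage among all H3K27ac regions without H3K9ac with Wilson 95% intervals. Density runs from 0.159 to 1.47 per Mb, while the percentage stays between 5.04% and 11.8%.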

How the data were processed

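Per the methods of the study, reads were aligned by the authors with BWA to the bovine assembly UMD3.1.1, uniquely aligned reads were kept, and peaks were obtained with MACS2 at default settings against 1 input library. The labels also name Trim Galore 0.4.1. The series text and the methods differ on single-end or paired-end reads of 75 nt. The authors deposited 1 list per library, of which 8 were used, with 3 columns (chromosome, start and end in bp) and no score, count or signal. Positions were read as 1-based with both ends included. Libraries were grouped by their labels. The regions, comparison sets and named regions were chosen with earlier results of these data known. Named were the 5 widest regions, the 3 with the highest and the 3 with the lowest ratio, the widest under RNA pol II (both conditions, control only, butyrate only), those under H3K9me3 (none), the largest group, and the one farthest from H3K9ac. Shares have Wilson, differences Newcombe, medians exact binomial order-statistic, and densities exact Poisson 95% intervals (Python 3.11.15, numpy 2.4.6, scipy 1.17.1). With 1 library per group no test between conditions was run. The merging and overlap steps were tested on simulated data. Gene names and sequences were not used here, since the gene table at hand is of another assembly. The input library entered through the peaks only.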

Additional observations from a re-analysis of the deposited data

Results flagged for a closer look

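Chromosome X was outside the choice of regions. There, 15 regions met the other conditions (H3K27ac in both conditions, no H3K9ac, at least 800 bp), which was flagged as a signal in data that the comparisons above did not use. They made up 6.76% (4.14 to 10.8) of the 222 H3K27ac regions without H3K9ac on X, at 0.101 per Mb. The widest was 1339 bp, their median share of bases under both conditions was 66.8%, and none was under an RNA pol II or H3K9me3 peak.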

How the results depend on the processing

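No paired analysis was possible because there was only 1 library per group. For the same reason no library could be left out. Of 82 values of the main results under the alternatives, 59 stayed within the 95% interval of the reported value (for the number of regions, within 1.5 times) and 23 moved beyond it. Only the median log2 ratio could change direction, since the other values are counts, shares and distances. It stayed negative under every setting. With a smallest width of 600 bp there were 3704 regions, the shared share of the median region was 61.8%, the nearest other region was 50.6 kb away, and 63.1% had another within 100 kb. With 1000 bp there were 501 regions, 2.20% were under control RNA pol II, H3K9ac was a median of 17.9 kb away, the nearest other region 776.6 kb away, and 20.2% had another within 100 kb. When peaks up to 200 bp apart were merged, there were 3075 regions, the shared share was 48.3%, the median log2 ratio -0.067, the distance to H3K9ac 29.3 kb, the nearest other region was 70.01 kb away, and 57.4% had another within 100 kb. Leaving out regions with H3K9ac within 1 kb gave a distance to H3K9ac of 32.5 kb, and 36.8% with another region within 100 kb. With only the H3K27ac peaks at or above the median width of their list, the shared share was 61.1%, the nearest other region 221.8 kb away, and 36.5% had another within 100 kb. Counting peaks within 1 kb as overlaps gave 2.26% and 2.98% under control and butyrate RNA pol II, and 0.291% under butyrate H3K9me3. These changes follow from which regions or peaks each setting takes in. Reading positions as 0-based or adding chromosome X moved no value beyond its interval. Of 129 values of named regions that a setting kept, 119 moved by at most 0.1 on the log2 scale, and none past 1.5-fold changed direction. The settings kept 14 to 21 of the 21 named regions, and 14 when the narrower H3K27ac peaks were left out, where the 6 most unequal regions dropped out because their smaller peak is narrower than that median. The region with the lowest ratio went from -2.66 to -1.10 when peaks up to 200 bp apart were merged. The numbers of RNA pol II and H3K9me3 overlaps, at 0 to 27, limit the precision of every statement about them.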
